A study of Sus scrofa with 15 samples.

Results

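The genes described here are the chaperones and foldases of the cytosol and the endoplasmic reticulum, followed while pig granulosa cells lost their differentiated state in culture. Members were all genes whose single symbol in the array annotation begins with or equals one of a fixed set of names, namely the heat shock protein (HSP) families, the J proteins DNAJA, DNAJB and DNAJC, the CCT and TCP1 subunits, PDIA, CALR, CANX, SDF2L1, the FKBP immunophilins and the PPI cyclophilins. Of 6765 named genes, 78 met this rule, and each was read from its brightest probe set over the 15 arrays. By the known home of their proteins, 41 belong to the cytosol and 20 to the reticulum, 18 of them acting in its lumen and 2 in its membrane. Calnexin, which spans the membrane but binds its clients in the lumen, was counted as lumenal. Of the others, 8 belong to mitochondria, 7 to the nucleus and 1, DNAJC5, to secretory vesicles. The last, HSPB11, carries a heat shock name but is a part of the intraflagellar transport machinery. No member was left out by a filter on low values. HSPA6, a strictly stress-induced HSP70, and FKBP6, an immunophilin of germ cells, had means below the lower quartile of all probe sets. A fall or a small change in them could thus hardly have been seen, though a strong rise could.

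The study measured total RNA of follicular granulosa cells from pig ovaries with the Affymetrix porcine genome array, a short-oligonucleotide array that reads the 3′ end of transcripts. Cells were sampled at the start (day 0) and after 1, 2, 4 and 7 days of culture, with 3 arrays at each time, which the labels call biological replicates. On day 7 the labels name the cells DFOG cells, grown until semiconfluent. The labels name no treatment or altered gene in any group, and neither the age or breed of the animals, nor the medium, nor whether RNA of several animals was pooled. The spread between arrays is therefore that of these samples, and may be partly technical. All values are log2 intensities after robust multi-array averaging (RMA), so 1 unit is a 2-fold difference, and values of one gene are compared between days, never one gene's level with another's.

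Chaperones bind unfolded or partly folded proteins and keep them from aggregating. In the cytosol, HSP70 proteins work in cycles set by J proteins and nucleotide exchange factors, HSP90 matures kinases and steroid receptors, and the ring-shaped TRiC complex folds actin and tubulin. In the lumen of the endoplasmic reticulum, HSPA5 (BiP) and HSP90B1 (GRP94) receive newly made secreted and membrane proteins, calnexin and calreticulin bind their sugar chains, and disulfide and prolyl isomerases set their bonds. These reticulum genes are known targets of the unfolded protein response, while heat shock factor 1 drives many of the cytosolic ones.

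Of 16 granulosa markers, all were on the array, and the log2 of their summed intensity went from 15.8 to 16.2 on day 0 through 14.4 to 15.2 on day 1 to 13.77 to 14.03 on day 7. Markers with high readings weigh most in such a sum. On day 7 GJA1 had the highest mean of the 16, at 13.13 against 13.46 on day 0, so the sum does not follow all 16 alike. By day 7 against day 0, 2 of the 16 were called higher and 7 lower, beside 9.36% and 7.28% of all probe sets. The steroid enzymes HSD3B1 and CYP11A1 were the 2 higher, from means of 5.83 to 11.21 and 7.94 to 10.97. INHA, the inhibin alpha chain made by granulosa cells, read 14.26 on day 0 and 7.05 on day 7, while the granulosa factor FOXL2 read 5.90 and 5.93 and aromatase CYP19A1 read 5.26 and 5.08. Summed macrophage markers were 6.61 to 6.89 on day 0 and 6.64 to 6.93 on day 1 (7.24 to 7.36 on day 7), with 4 of 5 under the lower quartile on day 0. CD14 carried the day 7 rise of this sum (1.67 ± 0.22 against day 0), while the other macrophage markers changed by -0.52 to -0.02. The same sums on days 0 and 1 were 8.84 to 9.29 and 8.70 to 9.03 for endothelial cells, 8.72 to 9.15 and 8.73 to 8.98 for red blood cells, and 7.07 to 7.48 and 7.14 to 7.49 for lymphocytes. The theca markers, 2 in number, went from 7.95 to 8.54 down to 6.85 to 7.37. INSL3 carried that fall (-1.42 ± 0.23), while CYP17A1 changed by 0.10 ± 0.19. The endothelial sum also hides opposite moves: on day 1 PECAM1 rose by 1.64 ± 0.21 and TIE1 fell by 0.98 ± 0.22. The other endothelial markers did not pass the test. The gap between 3′ and 5′ actin probe sets, a measure of array quality, ranged over 0.97 to 1.68 in day 0 arrays. In day 1 arrays it ranged over 0.18 to 1.01 and in day 2 arrays over 0.02 to 0.68, with 2.12 in day 4 replicate 2. The gap of the dap control, which is not a pig gene, was 1.72 to 1.77 on day 0. It was 1.47 to 1.63 on day 1, 1.26 to 1.50 on day 2 and 3.52 in day 4 replicate 2. For GAPDH the ranges on days 0, 1 and 2 were 0.50 to 1.16, 0.22 to 1.02 and 0.28 to 0.86. The gaps thus do not measure the sample RNA alone. They moved with the changes of day 1, and their part in those changes was not tested. The replicate 1 array of every day stood apart from the other arrays on the third principal component, at 29.4 to 48.1 against -41.4 to -5.78, and class counts without them are given beside the results.

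Changes were tested with limma over all 23999 probe sets and 15 arrays, with Benjamini-Hochberg adjustment. Below, a gene rose or fell where its adjusted p was under 0.05, and it was called where the log2 change was also at least 1. Over the whole time course (limma F test, range of day means of at least 1), 29 of 78 members were called, or 37.2%, against 23.6% of all probe sets and 29.2% of named genes. The reticulum class held 13 of its 20 genes among them and the cytosolic class 14 of its 41. The median change on day 1 was -0.53 over reticulum genes and 0.43 over cytosolic genes, beside -0.00122 over all probe sets. On day 2 against day 1 the reticulum median was 1.01 and the cytosolic median -0.12. The cytosolic median of day 1 depended on the scaling, at 0.30 when the values were quantile-normalized again and 0.25 with cyclic loess, while the reticulum median was -0.60 and -0.62. No test was made of the difference between the class medians, since the members were chosen with results known. In bulk samples like these, fewer cells of one type and less RNA per cell cannot be told apart.

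The day of the lowest mean was counted in each class, without a test. The same count was not made over all probe sets, so it cannot show whether either class differs from other genes. Of the 20 reticulum genes, 13 had their lowest day mean on day 1 and 4 on day 0. Of the 41 cytosolic genes, 6 were lowest on day 1 and 25 on day 0.

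**Figure D1:**
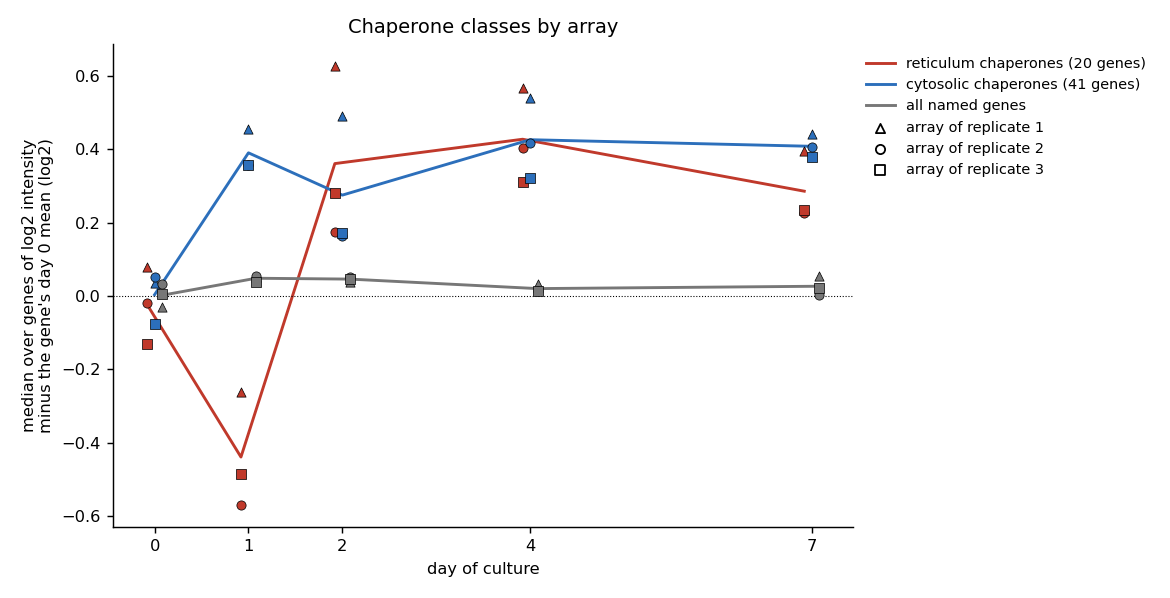
Median over genes of the log2 intensity minus each gene's day 0 mean (y axis, log2 units) against day of culture (x axis), for 20 reticulum chaperones (red), 41 cytosolic chaperones (blue) and all 6765 named genes (grey); each symbol is 1 array and lines join the means of the 3 arrays of a day. On day 1 the reticulum median is -0.26, -0.57 and -0.49 on the 3 arrays and the cytosolic median 0.45, 0.36 and 0.36, and from day 2 on both lie above 0.

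On day 1 against day 0, 13 of 78 members were called, 7 higher and 6 lower, or 16.7%, beside 12.5% of all probe sets (6.47% higher and 6.03% lower) and 15.8% of named genes. The members' share was thus near the background. Of the 20 reticulum genes, 4 were called lower and 0 higher. At an adjusted p under 0.05 alone 9 fell and 1 rose, where 11.4% of all probe sets and 13.7% of named genes fell. By limma at an unadjusted p under 0.05, 2 were higher and 9 lower, and with eBayes trend and robust 0 were called higher. Leaving out 1 array at a time gave 3 to 7 called lower, the 7 without day 0 replicate 3, and 8 or 9 that fell. Both other scalings also gave 7, and replicates 2 and 3 alone gave 5 called and 11 that fell.

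HSPA5, the HSP70 of the reticulum lumen and the sensor partner of the unfolded protein response, read 12.97, 13.44 and 13.06 on day 0 in replicates 1, 2 and 3. It read 12.17, 12.15 and 12.08 on day 1 and 13.16, 12.95 and 13.05 on day 2. All day 1 arrays lay below every other array of the course. The change was -1.02 ± 0.14 on day 1 (log2, SE; adjusted p = 9.23e-05) and 0.92 ± 0.14 on day 2 against day 1 (adjusted p = 0.00165), and day 7 differed from day 0 by -0.19 ± 0.14 (adjusted p = 0.342). The first change stood at -0.88 without day 0 replicate 2 and at -0.996 without day 1 replicate 3, below the minimum, with adjusted p of 0.000427 and 0.000739.

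HSP90B1, the HSP90 of the lumen and a chaperone of integrins and Toll-like receptors, was at 12.83, 12.34 and 12.14 on day 0, 11.48, 10.67 and 10.92 on day 1 and 12.13, 12.24 and 12.30 on day 2. The day 1 arrays again lay below all others, and replicate 1 was the highest of them. It was called lower on day 1 at -1.41 ± 0.20 (adjusted p = 0.000174) and higher on day 2 at 1.20 ± 0.20 (adjusted p = 0.00401). A dimmer probe set of the gene moved further, by -2.01 and 1.62. By day 7 the level was 12.35 ± 0.12 (SD, n = 3), against 12.44 ± 0.36 on day 0.

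The disulfide isomerases, which form and shuffle disulfide bonds, fell and rose in all 3 measured members. PDIA3 (ERp57), the partner of calnexin and calreticulin, read 12.67, 12.28 and 12.13 on day 0, 11.59, 11.40 and 11.36 on day 1 and 13.06, 12.63 and 12.70 on day 2. PDIA4 (ERp72) read 11.45, 11.17 and 10.96, then 10.19, 10.13 and 10.33, then 11.34, 11.36 and 11.45. PDIA6 (P5) read 13.05, 13.20 and 12.98, then 12.19, 12.11 and 11.98, then 12.71, 12.94 and 12.90. In each of the 3 genes every day 1 array was below every day 0 and day 2 array. The falls were -0.91 ± 0.17, -0.97 ± 0.15 and -0.98 ± 0.13 for PDIA3, PDIA4 and PDIA6, none of them reaching the minimum of 1, with adjusted p of 0.0014, 0.000237 and 9.66e-05. On day 2 they rose by 1.35 ± 0.17, 1.17 ± 0.15 and 0.76 ± 0.13. By day 7 PDIA3 was above day 0 by 0.61 ± 0.17 (adjusted p = 0.0153), while PDIA4 (0.17 ± 0.15) and PDIA6 (-0.13 ± 0.13) did not pass the test. The median of the 3 on day 7, 0.17, turned to -0.07 with the second quantile normalization and -0.09 with cyclic loess.

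Immunophilins of the lumen, which turn proline bonds and in part serve collagen, split in direction. FKBP9 was at 10.85, 10.84 and 11.09 on day 0, 9.56, 9.15 and 9.23 on day 1 and 9.95, 10.66 and 10.82 on day 2. Its fall of -1.61 ± 0.26 (adjusted p = 0.000424) was the steepest of the reticulum class, and on day 2 it rose by 1.16 ± 0.26 (adjusted p = 0.018). That rise missed the test when replicate 2 or 3 of day 1 (1.08 and 1.12) or of day 2 (1.07 and 0.99) was left out. FKBP2 was at 10.63, 10.18 and 10.21, then 9.89, 9.001 and 9.05, then 10.49, 10.22 and 10.31, so its day 1 arrays were low as well. It was called at -1.02 ± 0.22 on day 1 and 1.03 ± 0.22 on day 2. The fall stood at -0.88 without day 0 replicate 1 and at -0.87 and -0.89 when replicate 2 or 3 of day 1 was left out, below the minimum but past the test. The rise missed the test when replicate 2 or 3 of day 1 (0.87 and 0.89) or replicate 3 of day 2 (1.04) was left out, and missed the minimum when replicate 1 of day 2 was left out (0.95). FKBP14, mutated in a form of Ehlers-Danlos syndrome, fell by 0.69 ± 0.15 and rose by 1.33 ± 0.15. FKBP7 and FKBP10 did not share the fall: FKBP7 rose on day 1 by 0.73 ± 0.19 (adjusted p = 0.0123), and FKBP10, a collagen chaperone, changed by 0.24 ± 0.17 (adjusted p = 0.388).

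**Figure D2:**
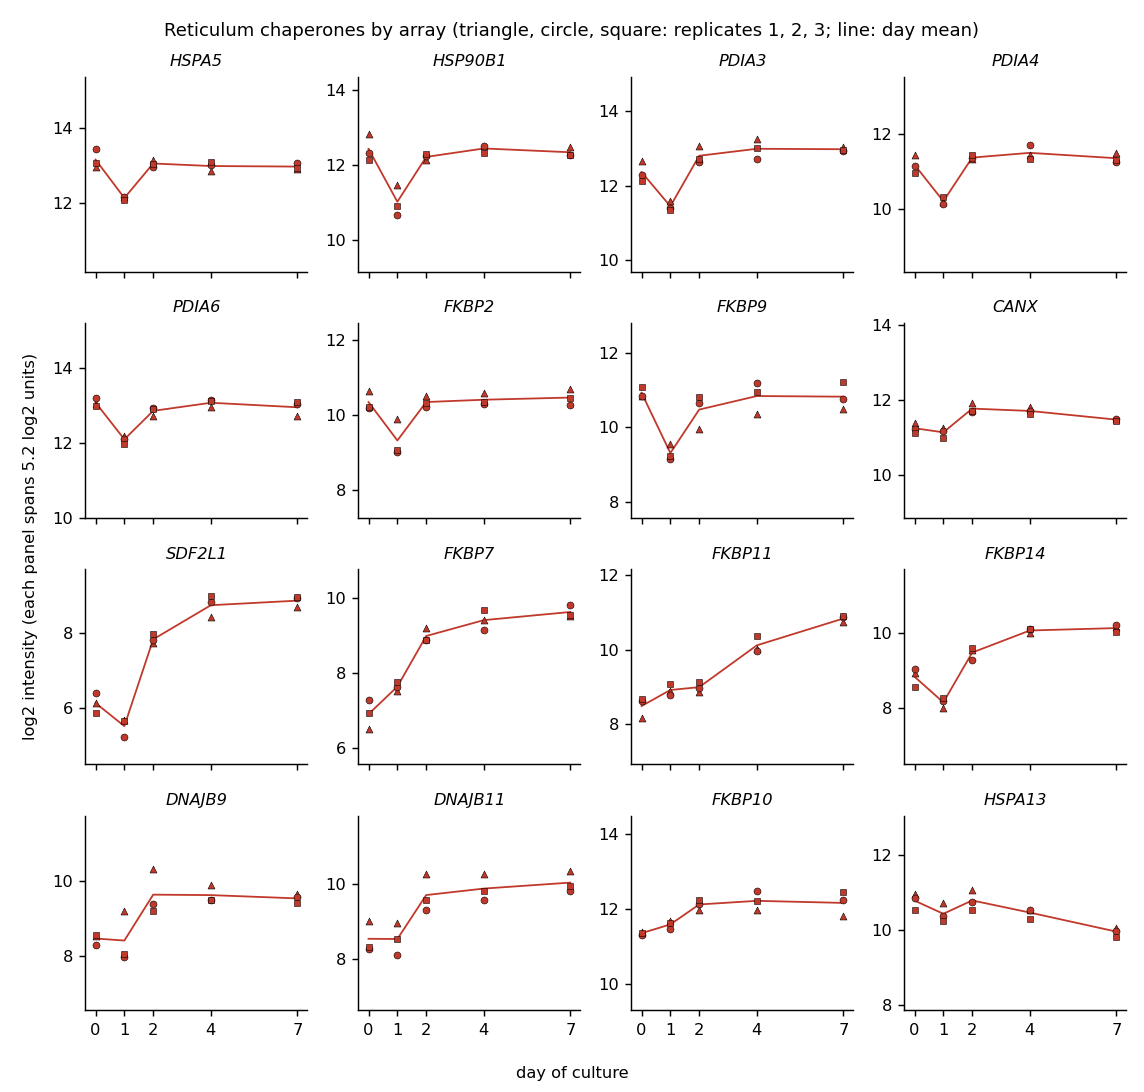
Log2 intensity (y axis) of 16 reticulum chaperones on each of the 15 arrays against day of culture (x axis); triangles, circles and squares are replicates 1, 2 and 3, lines join day means, and each panel spans the same number of log2 units. HSPA5, HSP90B1, PDIA3, PDIA4, PDIA6, FKBP2 and FKBP9 are lowest on day 1, whereas SDF2L1, FKBP7 and FKBP11 end well above day 0.

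On day 2 against day 1, which reuses the day 1 arrays of the comparison above, 10 of 78 members were called, or 12.8%, beside 3.04% of all probe sets and 4.36% of named genes. All 10 were higher and all 10 were reticulum genes, where 2.04% of all probe sets and 2.96% of named genes were called higher. At an adjusted p under 0.05 alone 13 of the 20 reticulum genes rose and 0 fell, beside 3.62% of all probe sets that rose and 2.47% that fell. Of named genes 5.5% rose and 3.84% fell. In 14 reticulum genes the arrays of the 2 days did not overlap, with day 2 above, as was true of 11.6% of all probe sets and 15.3% of named genes. By limma no reticulum gene was lower at an unadjusted p under 0.05 either, nor called lower with eBayes trend and robust. Of the 41 cytosolic genes limma called 0 in either direction, as with trend and robust, with 2 higher and 7 lower at an unadjusted p under 0.05. Without day 2 replicate 1 there were 2 called lower, and without day 1 replicate 3 there was 1. With the replicate number as a block, 1 cytosolic gene was called higher and 7 fell, against 1 that fell without it. Without day 1 replicate 2 or day 1 replicate 3 the reticulum count was 6, and 9 rose. From replicates 2 and 3 alone 11 were called and 15 rose.

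SDF2L1, a lumenal partner of DNAJB11 in keeping misfolded proteins soluble, had the largest change of the members from day 1 to day 2. It read 6.13, 6.41 and 5.86 on day 0, 5.68, 5.21 and 5.65 on day 1, 7.73, 7.81 and 7.96 on day 2, 8.43, 8.82 and 8.98 on day 4 and 8.70, 8.95 and 8.95 on day 7. Day 1 was below day 0 and every later array was above both. The rise from day 1 to day 2 was 2.32 ± 0.19 (4.98-fold, adjusted p = 2.87e-05), a further 0.91 ± 0.19 followed by day 4 (adjusted p = 0.0131), and day 7 stood 6.65-fold above day 0.

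The J proteins of the lumen deliver clients to HSPA5. DNAJB11 (ERdj3) read 8.96, 8.10 and 8.54 on day 1 and 10.26, 9.30 and 9.57 on day 2, with replicate 1 the highest on each day. It rose by 1.17 ± 0.30 (adjusted p = 0.0331), and its change on day 1 was -0.01 ± 0.30. DNAJB9 (ERdj4) read 9.20, 7.96 and 8.04 on day 1 and 10.31, 9.37 and 9.20 on day 2, and the replicate 1 array of day 1 equalled the lowest of day 2 to 2 decimals, so the days overlapped. Its rise was 1.23 ± 0.32 (adjusted p = 0.038). Each call lay near the threshold. DNAJB11 missed the test without day 1 replicate 2 (0.96) or 3 (1.18) or day 2 replicate 1 (0.90) or 3 (1.24). DNAJB9 missed it, at 0.88 to 1.36, when any 1 of 9 arrays was left out. These were replicates 2 and 3 of days 0, 1 and 7, replicates 1 and 2 of day 2, and replicate 3 of day 4. Arrays of days 0, 4 and 7 are not in the comparison: without them the change stayed at 1.23, with adjusted p of 0.0510 to 0.0557. Another DNAJB9 probe set rose by 1.19 (adjusted p = 0.012), while the dimmest changed by 0.71 (adjusted p = 0.201). From the 6 arrays of the 2 days alone, the adjusted p was 0.104 for DNAJB11 and 0.194 for DNAJB9. DNAJC3 (P58IPK), which also restrains the kinase PERK, changed by 0.99 ± 0.28 and missed the test (adjusted p = 0.0537).

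Taking the fall and the rise together, 3 of 78 members were called lower on day 1 and higher again on day 2, namely HSP90B1, FKBP2 and FKBP9, as were 0.325% of all probe sets and 0.547% of named genes. By adjusted p alone there were 9, all of the reticulum: these 3 with HSPA5, PDIA3, PDIA4, PDIA6, FKBP14 and SDF2L1. By that rule the pattern held for 0.946% of all probe sets and 1.69% of named genes. No cytosolic gene of 41 showed the pattern in its brightest probe set by either rule. A second, nearly as bright probe set of HSP70.2 showed it by adjusted p alone, at -2.51 and then 0.87 (limma, adjusted p = 3.06e-07 and 0.00752). With the replicate block 1 cytosolic gene, HSP70.2, showed it by both rules, and from replicates 2 and 3 alone 1 did by adjusted p alone. Among reticulum genes the count of 9 was 6 without day 1 replicate 2 and 11 from replicates 2 and 3 alone, and the count of 3 was 1 without day 1 replicate 2 or day 2 replicate 3. Both changes use the day 1 arrays, so they are not independent.

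On day 7, some reticulum genes lay above day 0 and others did not differ from it by the test. On day 7 against day 0, 14 of 78 members were called, or 17.9%, beside 16.6% of all probe sets and 19.6% of named genes, 13 of them higher (background 9.36%) and 1 lower (7.28%). In the reticulum class 6 of 20 were called higher and 0 lower. By adjusted p alone 8 rose and 1 fell, beside 16.4% and 14.9% of all probe sets and 23.4% and 15.4% of named genes. The class median of 0.20 did not keep its sign, being 0.0161 with the second quantile normalization and -0.0124 with cyclic loess.

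FKBP7 read 6.51, 7.27 and 6.94 on day 0 and 9.53, 9.82 and 9.55 on day 7, without overlap, a change of 2.73 ± 0.19 (adjusted p = 1.47e-07). FKBP11, an immunophilin of secretory cells, rose late: it read 8.17, 8.63 and 8.67 on day 0, 8.87, 8.97 and 9.14 on day 2, 10.01, 9.96 and 10.37 on day 4 and 10.73, 10.86 and 10.90 on day 7. It was called between days 2 and 4 at 1.12 ± 0.16 (adjusted p = 0.00131) and over 7 days at 2.34 ± 0.16. FKBP14 (1.30 ± 0.15), DNAJB11 (1.50 ± 0.30) and DNAJB9 (1.07 ± 0.32) were called too, while FKBP10 at 0.81 ± 0.17 passed the test below the minimum (adjusted p = 0.00242). The call of DNAJB9 was lost when day 0 replicate 2 (0.99) or, of day 7, replicate 1 (1.02) or replicate 2 (1.06) was left out, and under both other scalings (0.94 and 0.92). In contrast, HSPA5, HSP90B1, PDIA4, PDIA6, FKBP2 and FKBP9 differed from day 0 by -0.19 to 0.17, with adjusted p of 0.342 or more. HSPA13, a microsomal HSP70, was the 1 reticulum gene that fell, by 0.83 ± 0.18 (adjusted p = 0.00234).

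Of the lectin chaperones, calnexin rose on day 2 and calreticulin passed no test. Calnexin (CANX) read 11.38, 11.22 and 11.11 on day 0, 11.25, 11.17 and 10.96 on day 1 and 11.91, 11.68 and 11.69 on day 2. The first days overlapped, and it rose on day 2 by 0.63 ± 0.13 (adjusted p = 0.00899). Calreticulin (CALR) changed by -0.57 ± 0.40 on day 1 and -0.13 ± 0.40 on day 2, and its arrays scattered widely, at 7.35, 8.88 and 8.70 on day 2. The membrane J proteins DNAJB14 and DNAJC14 changed by at most 0.21 between neighbouring days 0, 1 and 2, and neither passed a test.

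In the cytosol more genes rose on day 1 than fell. Of 41 genes 6 were called higher and 2 lower on day 1 against day 0. The shares called higher and lower were 6.47% and 6.03% of all probe sets and 8.88% and 6.92% of named genes. By adjusted p alone 15 rose and 4 fell, beside 13.6% of all probe sets that rose and 11.4% that fell, and 19.5% and 13.7% of named genes. Under cyclic loess 2 were called higher and 12 rose, and under the second quantile normalization 4 and 14. Without single arrays 4 to 7 were called higher and 13 to 17 rose.

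The TRiC chaperonin, of which 6 subunits were measured, had a median change of 0.67 on day 1, and 0.57 and 0.41 under the other scalings. CCT6A read 10.49, 10.06 and 9.86 on day 0 and 11.44, 11.22 and 11.27 on day 1, and was called at 1.17 ± 0.27 (adjusted p = 0.00495), though at 0.93 under cyclic loess and 0.91 as a mean of its probe sets. TCP1 read 10.89, 10.99 and 10.79 and then 11.59, 11.58 and 11.65, and CCT4 11.61, 11.73 and 11.68 and then 12.44, 12.37 and 12.30. In all 3 subunits the day 1 arrays lay above the day 0 arrays. TCP1 and CCT4 rose by 0.72 ± 0.12 and 0.69 ± 0.12 (adjusted p = 0.000562 and 0.00065), whereas CCT8 (0.65 ± 0.26), CCT7 (0.28 ± 0.17) and CCT2 (0.21 ± 0.19) did not pass the test. On day 7 the median of the 6 was 0.49 above day 0, or 0.24 and 0.19 under the other scalings, and CCT6A at 1.07 ± 0.27 lost its call under both (0.85 and 0.81), without day 0 replicate 3 (0.93) and without day 7 replicate 1 (0.92).

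The 4 that fell were HSP70.2, HSPA2, DNAJB1 and HSPB3. A second probe set of HSPB6 fell by 1.57 (adjusted p = 0.00182), and over means of a gene's probe sets 3 were called lower and 5 fell. HSP70.2, a stress-inducible HSP70 of the pig, read 10.86, 10.91 and 10.63 on day 0, 9.36, 8.64 and 8.77 on day 1, 10.57, 9.65 and 9.68 on day 2 and 10.97, 10.15 and 10.04 on day 7. Day 1 was below every other array, and from day 1 on replicate 1 was the highest. It was called lower on day 1 at -1.88 ± 0.34 (3.67-fold lower, adjusted p = 0.000937), with -2.13 and -2.51 in its other probe sets. The return on day 2 of 1.04 ± 0.34 missed the test (adjusted p = 0.0961) and passed it with the replicate number as a block (adjusted p = 0.0029), and another probe set rose by 0.87 (adjusted p = 0.00752). Its day 7 level is not settled either: the brightest probe set did not pass the test (-0.42 ± 0.34, adjusted p = 0.395), while the others were lower at -1.63 and -1.20 (adjusted p = 4.44e-06 and 0.0169). Its probe sets can also take up RNA of near-identical HSP70 copies, which was not tested. HSPA2, an HSP70 best known from male germ cells, read 9.64, 9.58 and 9.59 on day 0, 8.89, 7.75 and 7.39 on day 1 and 8.52, 7.90 and 7.81 on day 7, so it fell (-1.59 ± 0.34, adjusted p = 0.00328) and stayed low (-1.52 ± 0.34 on day 7). DNAJB1 (HSP40), the inducible J protein that pairs with HSP70, fell by 0.70 ± 0.20 (adjusted p = 0.0212). The constitutive HSPA8 changed by 0.28 ± 0.14 (adjusted p = 0.177).

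**Figure D3:**
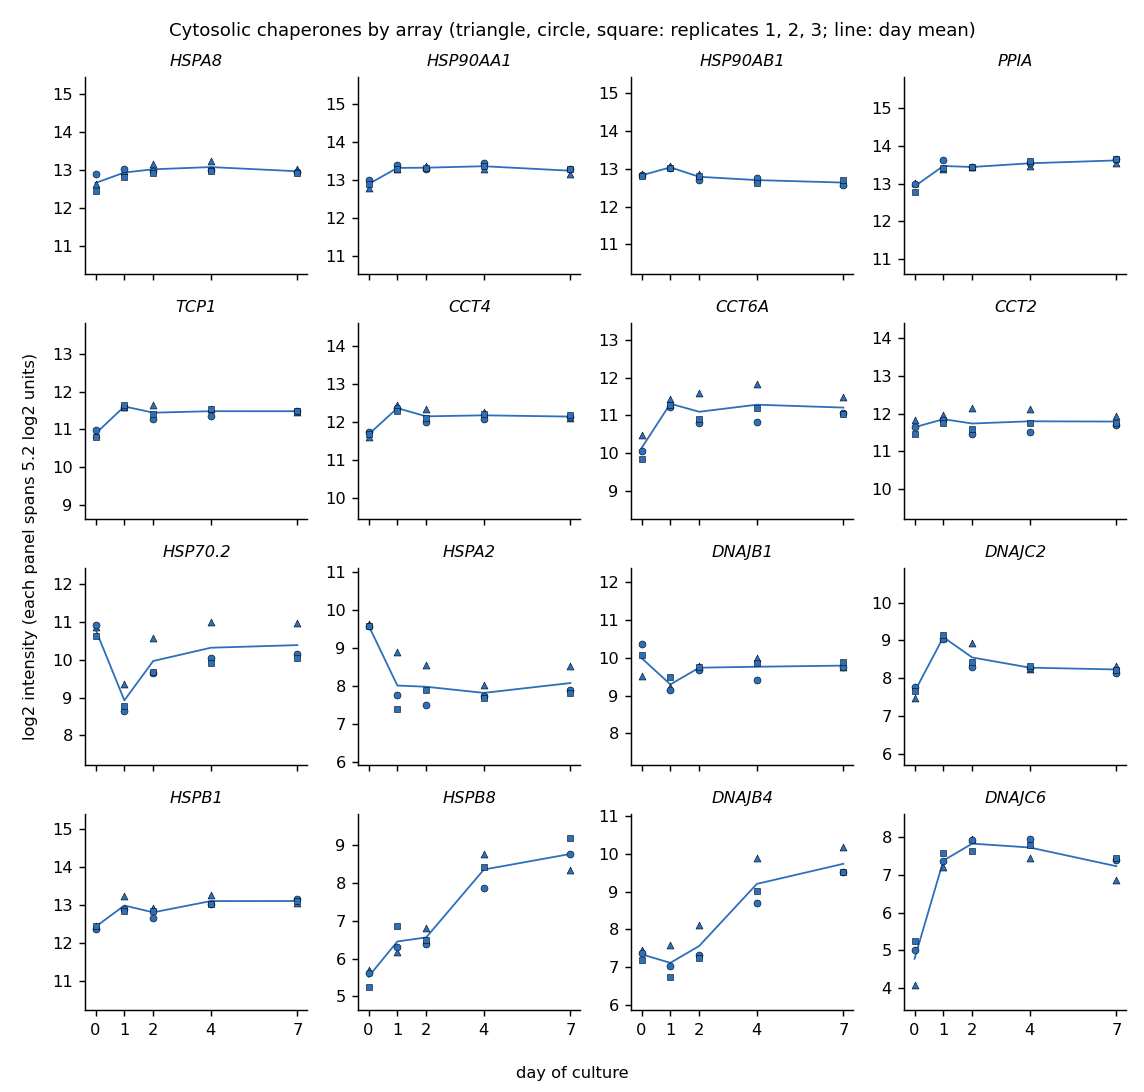
Log2 intensity (y axis) of 16 cytosolic chaperones on each of the 15 arrays against day of culture (x axis); triangles, circles and squares are replicates 1, 2 and 3, lines join day means, and each panel spans the same number of log2 units. HSP70.2 and HSPA2 are lower on all day 1 arrays, DNAJC2 and DNAJC6 are higher, and HSPB8 and DNAJB4 climb between days 2 and 4.

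Several partners of HSP70 were among the 15 that rose. HSPA14 and the J protein DNAJC2, which sit together on the ribosome and receive nascent chains, were called at 1.09 ± 0.14 and 1.44 ± 0.15 (adjusted p = 5.7e-05 and 1.33e-05), HSPA14 at 0.96 under cyclic loess. DNAJC2 read 7.48, 7.77 and 7.67 on day 0 and 9.07, 9.05 and 9.13 on day 1, without overlap. The exchange factor HSPBP1 was called at 1.03 ± 0.16, and stood at 0.99 and 0.98 without day 0 replicate 3 or day 1 replicate 3, at 0.95 under the second quantile normalization and at 0.93 under cyclic loess. The J proteins DNAJA2 (0.93 ± 0.18), DNAJB6 (0.63 ± 0.15) and DNAJC24 (0.60 ± 0.17) rose below the minimum. Auxilin, DNAJC6, which strips clathrin coats from vesicles, had the largest cytosolic change of the first day. It read 4.09, 5.00 and 5.24 on day 0, 7.19, 7.36 and 7.57 on day 1 and 6.87, 7.38 and 7.43 on day 7. The rise of 2.60 ± 0.26 was 6.05-fold (adjusted p = 8.97e-06), and day 7 stood at 2.45 ± 0.26. Its day 0 values lie near the lower quartile of the arrays, which was 4.41 to 4.68. DNAJC5, the cysteine string protein of secretory vesicles, moved likewise, from 7.01, 7.25 and 7.19 to 9.32, 9.01 and 9.09, a change of 1.99 ± 0.14 (adjusted p = 5.86e-07).

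Among the HSP90 proteins, HSP90AA1 rose by 0.43 ± 0.11 in its brightest probe set (adjusted p = 0.0101), but another of its probe sets fell by 0.68 (adjusted p = 0.018), so its direction is not settled. It was the 1 gene of 29 with several probe sets in which 2 passed the test in opposite directions on day 1. HSP90AB1 changed by 0.21 ± 0.10 (adjusted p = 0.172). Of the cochaperones of steroid receptors, FKBP4 (0.46 ± 0.29) and FKBP5 (0.52 ± 0.25) did not pass the test on day 1, and FKBP5 fell on day 2 by 0.96 ± 0.25 (adjusted p = 0.0348) and stood at -0.86 ± 0.25 on day 7. PPID (cyclophilin 40), of the same group, was lower on day 7 by 0.72 ± 0.17.

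Of the small immunophilins of the cytosol, FKBP1A and PPIA rose on day 1. FKBP1A (FKBP12), the binding protein of rapamycin and a brake on TGF-beta receptors, read 9.33, 8.75 and 8.89 on day 0, 10.26, 9.78 and 10.06 on day 1 and 11.39, 10.89 and 11.16 on day 7. It rose by 1.04 ± 0.25 on day 1 and stood 2.15 ± 0.25 above day 0 on day 7, without overlap in either case. The day 1 call was lost, though the test was passed, when replicate 2 or 3 of day 0 (0.92 and 0.99) or replicate 1 of day 1 (0.92) was left out and under both other scalings (0.94 and 0.81). PPIA (cyclophilin A) rose by 0.54 ± 0.11. The paralog FKBP1B, a partner of calcium release channels, fell over 7 days by 0.89 ± 0.20 (adjusted p = 0.00355).

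HSPB8, HSPB3 and DNAJB4 rose between days 2 and 4, and HSPB8 had already risen on day 1 by 0.93 ± 0.27 (adjusted p = 0.0206). On day 4 against day 2, 3 of 78 members were called, all higher, or 3.85%, beside 2.53% of all probe sets (2% higher), and they were HSPB8, DNAJB4 and FKBP11. HSPB8, which works with BAG3 in clearing misfolded proteins, read 5.69, 5.62 and 5.26 on day 0, 6.81, 6.37 and 6.49 on day 2, 8.77, 7.86 and 8.42 on day 4 and 8.33, 8.77 and 9.20 on day 7. Days 4 and 7 lay above all earlier arrays. It was called at 1.79 ± 0.27 on day 4 (adjusted p = 0.00163), and its change over 7 days, 3.24 ± 0.27 or 9.45-fold, was the largest of all 78 members. DNAJB4 read 7.45, 7.38 and 7.19 on day 0, 8.11, 7.32 and 7.26 on day 2, 9.88, 8.70 and 9.02 on day 4 and 10.18, 9.51 and 9.51 on day 7, with replicate 1 highest on every day. Its changes were 1.64 ± 0.32 on day 4 (adjusted p = 0.00972) and 2.39 ± 0.32 over 7 days. HSPB3, a small heat shock protein of muscle, first fell on day 1 (-0.42 ± 0.14, adjusted p = 0.0432) and was called higher on day 7 at 1.36 ± 0.14, its 3 arrays at 6.29, 6.40 and 6.26. HSPB1 (HSP27), which guards actin filaments, rose by 0.56 ± 0.13 on day 1 and stood at 0.68 ± 0.13 on day 7, while HSPB2 (-0.38 ± 0.18) and HSPB6 (0.61 ± 0.31) did not pass the test and HSPB7 (0.58 ± 0.19) rose below the minimum.

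On day 7 against day 0, 6 of 41 cytosolic genes were called higher and 1 lower. The shares called higher and lower were 9.36% and 7.28% of all probe sets and 12.7% and 6.86% of named genes. By adjusted p alone 18 rose and 5 fell, where 16.4% of all probe sets rose and 14.9% fell, and 23.4% and 15.4% of named genes. The class median of 0.47 was 0.25 and 0.24 under the other scalings. Day 2 against day 0 gave 9 called members, 8 higher and 1 lower, or 11.5%, beside 13.8% of all probe sets (7.68% higher and 6.09% lower). Of the cytosolic genes not yet given, DNAJA4 fell over 7 days by 0.92 ± 0.17 (adjusted p = 0.000736) and the HSP70-related HSPA12A rose by 0.88 ± 0.21 (adjusted p = 0.00604). The exchange factors HSPA4 (0.83 ± 0.30 on day 1) and HSPH1 (0.36 ± 0.22 on day 1) and the actin-linked FKBP15 (0.23 ± 0.13 on day 1) did not pass the test, nor did DNAJB2 (0.02 ± 0.25 on day 1). DNAJA1 passed it on day 2 against day 0 at 0.83 ± 0.24 (adjusted p = 0.0198). HSPA6 and FKBP6 changed by -0.08 ± 0.17 and -0.13 ± 0.21 on day 1. Between days 4 and 7 limma called 0 of 78 members, beside 0.0583% of all probe sets, and also 0 by adjusted p alone (background 0.0625%) and with eBayes trend and robust, while 5 had an unadjusted p under 0.05.

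**Figure D4:**
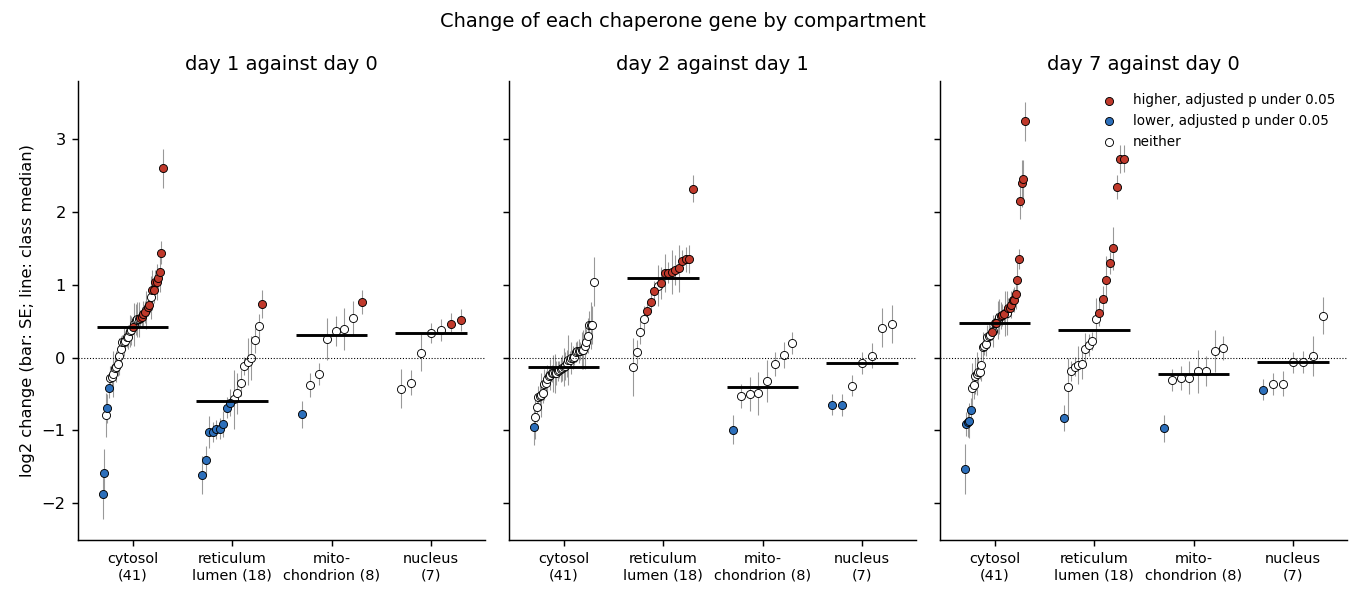
Log2 change (y axis, bars show the SE) of each gene of 4 compartments on day 1 against day 0, day 2 against day 1 and day 7 against day 0; each circle is a gene, red if higher and blue if lower at an adjusted p under 0.05, and the black line is the class median. In the first panel 9 of 18 lumenal genes are blue, and in the second 13 of 18 are red and none of the 41 cytosolic genes is.

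The mitochondrial chaperones did not move together. HSPA9 (mortalin), the HSP70 of the matrix and motor of protein import, read 11.51, 11.46 and 11.56 on day 0 and 12.25, 12.28 and 12.30 on day 1, without overlap, a rise of 0.76 ± 0.17 (adjusted p = 0.00378). HSPE1, the lid of the matrix chaperonin, fell by 0.78 ± 0.18 on day 1 and changed by -0.97 ± 0.18 over 7 days (adjusted p = 0.000852), while its barrel HSPD1 changed by -0.38 ± 0.16 and -0.27 ± 0.16 without passing the test. The cyclophilin PPIF, a regulator of the permeability transition pore, fell on day 2 by 0.99 ± 0.20 (adjusted p = 0.0117). DNAJC11 (0.54 ± 0.23), FKBP8 (0.39 ± 0.29), the J protein DNAJA3 (0.26 ± 0.29) and the import subunit DNAJC19 (-0.22 ± 0.15) did not pass the test on day 1. By limma 0 of the 8 were called on day 1 against day 0, day 2 against day 1 or day 7 against day 0, also with eBayes trend and robust, and at an unadjusted p under 0.05 there were 2 higher and 2 lower on day 1, 3 lower on day 2 and 1 lower on day 7. With 12.5%, 3.04% and 16.6% of all probe sets called in these comparisons, a count of 0 among 8 genes does not set the class apart.

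In the nucleus, PPIE, a cyclophilin of the spliceosome, and DNAJC17, a J protein with an RNA-binding domain, rose on day 1 and fell on day 2, the reverse of the reticulum pattern. PPIE changed by 0.46 ± 0.15 and then -0.65 ± 0.15, and DNAJC17 by 0.51 ± 0.15 and then -0.64 ± 0.15 (adjusted p = 0.0217 and 0.0217). All 4 changes were below the minimum of 1, and 1.26% of all probe sets and 2.05% of named genes showed this order by adjusted p alone. PPIE read 8.77, 8.49 and 8.65 on day 1 and 7.55, 7.62 and 7.55 on day 4, without overlap. DNAJC9, a histone chaperone, went from 6.54, 6.94 and 7.01 on day 1 to 8.50, 7.25 and 7.61 on day 4, replicate 1 being the highest on day 4, with no adjacent step past the test. FKBP3 (0.58 ± 0.26 on day 7), DNAJC8 (0.38 ± 0.15 on day 1), PPIH (0.34 ± 0.14 on day 1) and PPIG (-0.34 ± 0.17 on day 1) did not pass it either. HSPB11, the transport protein matched by name alone, changed by -0.03 ± 0.16 on day 1 and 0.52 ± 0.16 on day 2 (adjusted p = 0.071).

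Genes that work beside the members were counted from separate lists. Of 68 listed genes of the unfolded protein response and reticulum quality control, 40 were measured, with a median change of -0.10 on day 1 and 0.40 on day 2. On day 1, 4 were called higher and 4 lower, where 6.47% and 6.03% of all probe sets and 8.88% and 6.92% of named genes were. By adjusted p alone 6 rose and 9 fell, or 15% and 22.5%, beside 13.6% and 11.4% of all probe sets. Of named genes 19.5% rose and 13.7% fell, so the share that rose lay below that of named genes. Called lower were the lumenal proteins CRELD2 (-1.85 ± 0.19), ERP29 (-1.49 ± 0.16) and HYOU1 (-1.29 ± 0.20, the exchange factor of HSPA5), and the transcription factor ATF3 (-1.04 ± 0.34). Called higher were CREB3L2 (1.79 ± 0.22), ATF4 (1.75 ± 0.19), KDELR3 (1.66 ± 0.16) and DDIT3 (1.34 ± 0.26). ATF4, DDIT3 and ATF3 all belong to the PERK arm of the response and did not share a direction on day 1. On day 2 against day 1, 11 rose and 3 fell, or 27.5% and 7.5%, beside 3.62% and 2.47% of all probe sets and 5.5% and 3.84% of named genes. CRELD2 (1.39 ± 0.19), MANF (1.18 ± 0.17) and ERP29 (1.13 ± 0.16) were called higher, and ATF3 (-2.31 ± 0.34) and PPP1R15A (-1.20 ± 0.15) lower, and ATF4 fell below the minimum (-0.99 ± 0.19, adjusted p = 0.00774). On day 7 against day 0, 14 rose and 4 fell, or 35% and 10%, beside 16.4% and 14.9% of all probe sets and 23.4% and 15.4% of named genes. KDELR3, the receptor that returns lumenal proteins, stood at 2.98 ± 0.16.

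Of 16 listed genes of collagen folding and modification, 7 were measured, and on day 1 none rose and 4 fell, with a median of -0.72, while on day 2 against day 1 4 rose and none fell, with a median of 0.59. The shares of all probe sets that rose and fell were 13.6% and 11.4% on day 1, and 3.62% and 2.47% on day 2. Those of named genes were 19.5% and 13.7% on day 1, and 5.5% and 3.84% on day 2. P4HA2, a subunit of prolyl 4-hydroxylase, changed by -1.50 ± 0.16 on day 1 and 1.10 ± 0.16 on day 2, and CRTAP, of the prolyl 3-hydroxylation complex, by -0.82 ± 0.11 and 0.78 ± 0.11. Of 32 cytosolic cochaperones and heat shock regulators, 24 were measured. On day 1 7 rose and 2 fell, or 29.2% and 8.33%, beside the same 13.6% and 11.4% of all probe sets and 19.5% and 13.7% of named genes. BAG5 (1.61 ± 0.18) and BAG1 (1.09 ± 0.12), both exchange factors of HSP70, were called, and the heat shock factor HSF1 rose by 0.56 ± 0.13. On day 2 against day 1 none rose and 2 fell, HSF1 at -0.71 ± 0.13 and VBP1 at -0.68 ± 0.17. Thus 8.33% fell, beside 2.47% of all probe sets and 3.84% of named genes. On day 7 against day 0 CRYAB (2.32 ± 0.33) and BAG3 (1.36 ± 0.16) were called higher, alongside HSPB8.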

How the data were processed

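RNA of follicular granulosa cells was measured on 15 Affymetrix porcine genome arrays, 3 for each of 5 sampled days. The authors deposited log2 intensities per probe set made with RMA, per the submitters' processing notes; for its version, not given in the sources used here, nothing is stated. RMA corrects background, scales all arrays to one distribution and summarises the probes of a set, so a shift shared by most transcripts cannot be seen. Controls, 124 of 24123 probe sets, did not enter, and 10069 of the rest had 1 gene symbol in the platform annotation, 198 several and 13732 none. Each of 6765 genes was read from its probe set with the highest mean; 29 of the 78 members had several. Precision is limited by the number of arrays.

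A mean per day was fitted to all 23999 probe sets with limma 3.58.1 in R 4.3.3, with Benjamini-Hochberg adjustment. On simulated data for day 1 against day 0 over the 23999 probe sets, 88.1% of added changes of 1.5, 97.0% of 3 and 4.48% of 0.75 (44.8% by adjusted p alone) were recovered. There was 1 false call, and 4 by adjusted p alone. The simulated noise was independent between arrays and 23799 probe sets were left unchanged. In the real data 25.1% of all probe sets passed the adjusted p on day 1, and same-numbered arrays deviated together in part. These rates therefore check the code and do not give the power or error rate in these data. Named with values were a list of well-known members, the 5 with the largest range of day means in each class, the called members, and up to 4 genes of each further list with the largest change on day 1 or 2. ATF3, PPP1R15A, KDELR3, BAG3, CRYAB and HSF1 on other days, and members given to account for the rest, were added after their values were seen. The members, classes and lists were chosen with earlier results of these data known.

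Same-numbered arrays deviated together in part. The correlation of their deviations from the day means over all probe sets was 0.0609 to 0.333 for days 0 and 1. That range reaches below the 0.1 asked of every pair, while the other comparisons gave 0.115 to 0.727 and passed that mark. The main fit nevertheless paired the arrays in no comparison, and the replicate number entered only as a block in an alternative setting. The labels do not say what a number stands for. Alternatives were a second quantile normalization, cyclic loess, eBayes with trend and robust, dropping the 40% of probe sets with the lowest means, no minimum change, a block for the replicate number, only the 6 arrays compared, the mean of a gene's probe sets, replicates 2 and 3 only, and each array left out. Promoter and protein sequences were not used here.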

Additional observations from a re-analysis of the deposited data

How the results depend on the processing

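Of 37 calls in named values over 24 alternative settings, 12 were lost in at least 1 and none changed sign. Leaving aside the setting without a minimum change, 20 other values gained a call in at least 1 setting. Without the minimum change the counts were 34 members on day 1 against day 0, 17 on day 2 against day 1, 30 on day 2 against day 0, 6 on day 4 against day 2, 35 on day 7 against day 0, 50 over the time course and 9 for the fall and rise. From the 6 arrays compared alone, 6 members were called on day 2. The second quantile normalization gave 5 members for the fall and rise. The cytosolic median on day 1 was 0.30 under the second quantile normalization, 0.25 under cyclic loess, 0.49 without the dimmest probe sets and 0.28 over means of probe sets, and on day 7 it was 0.25, 0.24 and, over means, 0.33. The reticulum median on day 7 was 0.0161 and -0.0124 under the 2 scalings and 0.38 over lumenal genes alone.

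Leaving out each array gave 11 to 15 called members on day 1 against day 0, 6 to 12 on day 2 against day 1 (6 without day 1 replicate 2), 7 to 11 on day 2 against day 0, 2 to 4 on day 4 against day 2, 0 on day 7 against day 4, 13 to 17 on day 7 against day 0 and 26 to 31 over the time course. The fall and rise gave 1 to 5, with 1 without day 1 replicate 2 or day 2 replicate 3 and 5 without day 0 replicate 3. For days 1, 2 and 7, the cytosolic medians ran from 0.38 to 0.45, from -0.23 to -0.06 and from 0.37 to 0.47, and the reticulum medians from -0.62 to -0.39, from 0.87 to 1.20 and from 0.11 to 0.30.

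With the replicate number as a block, 13 members were called on day 1, 11 on day 2 against day 1, 9 on day 2 against day 0, 3 on day 4, 0 on day 7 against day 4, 14 on day 7 against day 0, 4 for the fall and rise and 29 over the time course. Apart from HSP70.2 on day 2, the block changed no call among the named values. For day 1 against day 0 the deviations of same-numbered arrays correlated at 0.214, 0.333 and 0.0609, the last below the 0.1 asked of every pair. The motif search in promoters and the comparison of protein ends were not run. Signal near the dim end of the array limits what can be seen of a fall or a small change in HSPA6 and FKBP6.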
